A study of Mus musculus with 8 samples.

Results

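Ribosome biogenesis genes encode the machinery that makes ribosomal RNA (rRNA) and assembles it into ribosomal subunits, and most of their products work in the nucleolus. A set of 44 such genes, defined by symbol, was followed in RNA sequencing of mouse CD8+ T cells before and after in vitro culture. All 44 were present among the 48321 gene symbols of the count tables. Of these, 43 passed the filter on low counts that left 12597 genes to test. The exception was *Gar1*, which had at most 1.28 CPM, its count scaled to an equal total per library, in any library.

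RNA polymerase I transcribes the long rRNA precursor from the ribosomal DNA. Small nucleolar ribonucleoproteins (snoRNPs) then modify it, with the box C/D class methylating ribose and the box H/ACA class turning uridine into pseudouridine. The small subunit processome folds and cuts the part that becomes the small subunit, and the PeBoW complex and other assembly factors build the large subunit. In T cells, activation through the antigen receptor is known to enlarge the nucleolus and to raise rRNA synthesis, in part through the transcription factor MYC.

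The libraries came from splenic CD8+ T cells, the cytotoxic lineage of T lymphocytes, of C57BL/6 mice, at day 0 and at day 5 of culture, with 2 libraries in each of the 4 groups. The groups are named WT and KO in the sample titles, and the series describes the mice as *Satb1* F/F; *E8I-cre*: floxed alleles of *Satb1*, a chromatin organizer of T cells, with a Cre recombinase driven by the E8I enhancer of the *Cd8a* locus, which is active in mature CD8 lineage cells. Whether the WT mice carried the floxed alleles or the Cre, the age of the mice, how many mice gave a library, and which stimulus and cytokines were used in culture are not given in the labels. Nothing states that the 2 libraries of a group came from separate mice or cultures, so p-values measure only the spread between these libraries, which may be technical.

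*Satb1* itself was at 97.8 and 91.6 CPM in WT and 144 and 125 CPM in KO libraries at day 0, and at 96.5 and 116 CPM in WT and 56.5 and 62.3 CPM in KO libraries at day 5. At day 0 the 2 KO libraries were thus above both WT libraries (log2 fold change 0.51 ± 0.15 SE, edgeR FDR 0.125), which goes against a loss of the transcript, although counts per gene do not show whether the deleted exons were covered. At day 5 they were below both (log2 fold change -0.84 ± 0.15 SE, edgeR FDR 0.0162). The second group is therefore called the KO-labelled libraries. Gene counts ranged from 4170126 to 11117971 per library. The summed CPM of 8 CD8 T cell markers was 14908 to 16528 at day 0 and 11080 to 12386 at day 5. Of the defining markers of other cells, *Cd4* was at most 0.964 CPM, the B cell genes *Cd79a* 2.26 CPM and *Pax5* 1.13 CPM, *Ncr1* 0.715 CPM and 4 erythroid genes together 0.904 CPM. The B cell gene *Cd79b* was at 122 and 118 CPM in WT and 141 and 164 CPM in KO-labelled libraries at day 0, and at 66.7 to 83.3 CPM at day 5. The list of 3 CD4 T cell genes summed to 1.36 to 3.58 CPM in WT and 6.06 to 6.26 CPM in KO-labelled libraries at day 0 and to 2.65 to 3.22 CPM at day 5. Most of the KO-labelled sum at day 0 was *Cd40lg*, at 5.66 and 3.85 CPM, against 1.61 and 1.13 CPM in WT. *Zbtb7b* was at 1.97 and 0 CPM in WT and 0 and 1.28 CPM in KO-labelled libraries at that day. The 5 myeloid genes summed to 10.3 to 19.0 CPM at day 0 and 4.06 to 5.87 CPM at day 5, and 3 natural killer cell genes, nearly all of it *Eomes*, to 10.7 to 17.3 CPM and 37.5 to 54.1 CPM.

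Levels of different genes were compared as CPM per kilobase of annotated exon. The highest member in all 4 groups was *Npm1*, which encodes nucleophosmin, an abundant histone and ribosome chaperone of the nucleolus, at 241 ± 23.8 CPM per kb (mean ± SD, n = 2) in WT cells at day 0 and 626 ± 18.6 CPM per kb at day 5. Below it at day 0 in WT cells stood *Nop10*, a small protein of the box H/ACA snoRNP, at 208 ± 4.54 CPM per kb. Its partners *Dkc1*, the pseudouridine synthase dyskerin, and *Nhp2*, an RNA-binding subunit, were at 165 ± 12.8 and 162 ± 3.47 CPM per kb, and the box C/D scaffold protein gene *Nop56* was at 168 ± 10.8 CPM per kb. The levels of *Nop56*, *Dkc1* and *Nhp2* in that group lay within each other's spread, whereas *Nop10* was above all 3 in both libraries. Each of these genes held a place among the top 5 members in all 4 groups.

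*Gar1*, the fourth protein of the box H/ACA snoRNP, was at 0.368 ± 0.226 CPM per kb in WT cells at day 0, far below *Nop10*, *Dkc1* and *Nhp2*. *Fbl*, which encodes fibrillarin, the methyltransferase of the box C/D snoRNP, was at 1.65 ± 0.104 CPM per kb, whereas the other core subunit genes *Nop56* and *Nop58* were at 168 ± 10.8 and 38.4 ± 1.48 CPM per kb. In every library *Gar1* was the lowest of the 4 box H/ACA genes and *Fbl* the lowest of the 4 box C/D genes on this scale. Reads that aligned to more than 1 place were set aside before counting. Of all 50-base stretches (the read length) of the annotated transcripts, 19.0% of those of *Fbl* and none of those of *Gar1* also occurred in transcripts of other genes. The same share was 55.9% for *Ddx18*, 24.3% for *Npm1*, 20.4% for *Pes1*, 18.6% for *Nop56* and 11.6% for *Dimt1*, so the levels of these genes were counted from part of their sequence and are uncertain to that extent. *Tsr1*, *Dimt1* and *Noc2l* share 32.3%, 31.9% and 20.9% of their exon bases with *Srr*, *Kif2a* and *Samd11* on the opposite strand. The strand setting of the counting is not given in the sources used here, so reads from these partners cannot be told apart.

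**Figure D1:**
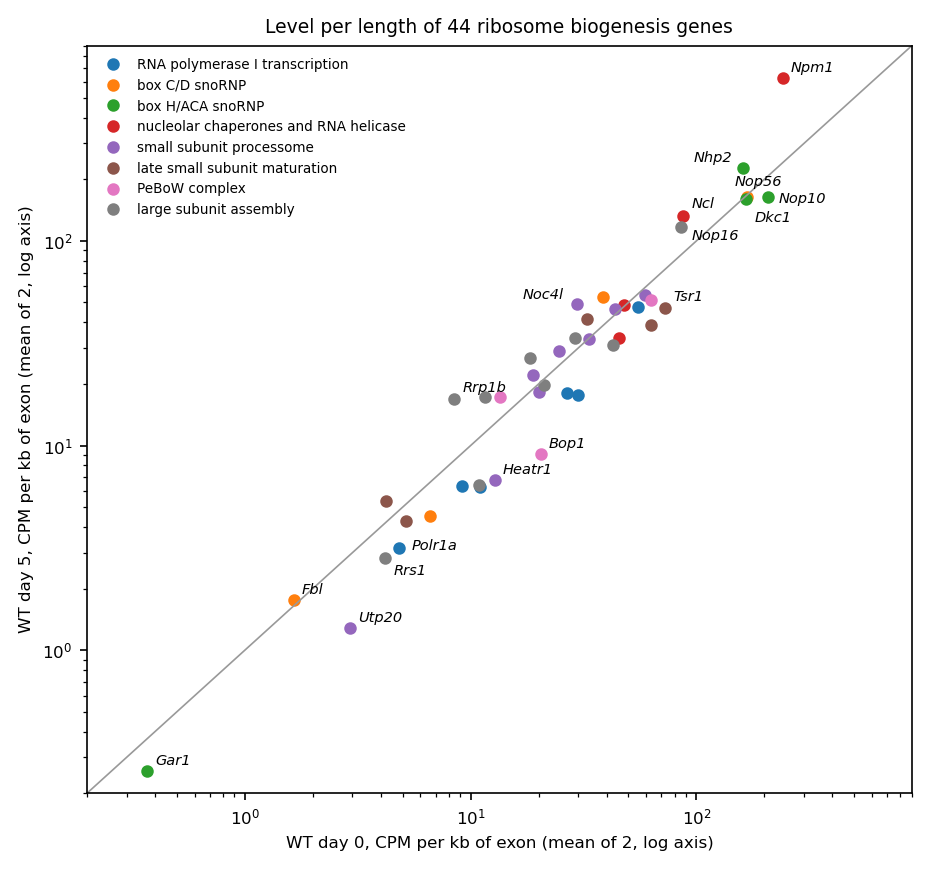
Level of each of the 44 ribosome biogenesis genes in WT cells at day 5 against day 0, in CPM per kb of exon on log axes, as the mean of 2 libraries per group, coloured by role; the line marks equal levels. *Npm1* stands at 241 CPM per kb at day 0 and 626 CPM per kb at day 5, and *Gar1* and *Fbl* lie at the lower end, apart from the other genes of their complexes.

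The first comparison was day 5 against day 0, made separately in WT cells and in the KO-labelled libraries, which share no libraries. It asked how the ribosome biogenesis genes moved in culture. They moved in both directions. In WT cells 25 of the 43 tested members were called at an edgeR FDR under 0.05, 11 higher and 14 lower at day 5, against 48.3% of all genes tested (24.7% higher and 23.6% lower). In the KO-labelled libraries 17 members were called, 7 higher and 10 lower, against 50.2% of all genes (26.2% higher and 24.0% lower). The share of members called was thus above that of all genes in WT cells and below it in the KO-labelled libraries, and neither difference was tested. The median log2 fold change of the 43 members was -0.09 in WT cells and -0.25 in the KO-labelled libraries, beside -0.04 and -0.05 over all genes. Groups without overlap were counted over all 43 tested members, called or not. In WT cells both day 5 libraries lay above both day 0 libraries for 15 members and below them for 16. The shares of all genes were 35.7% and 38.0%. Among the KO-labelled libraries the counts were 10 above and 21 below, against 38.2% and 39.7% of all genes. In bulk RNA, fewer cells that express a gene and less RNA per cell cannot be told apart, and CPM is a share of the counted RNA, so a change in the total RNA of a cell is not seen.

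The 16 members called in both comparisons all had the same direction in both. They made up 64% of the calls in WT cells and 94.1% of those in the KO-labelled libraries. Over all genes tested, 4780 genes were called in both, 78.6% and 75.6% of the calls, and 4765 of these kept 1 direction. The 7 members higher in both were *Npm1*, *Ncl*, *Nhp2*, *Noc4l*, *Wdr12*, *Rrp1b* and *Noc2l*. The 9 lower in both were *Polr1a*, *Ubtf*, *Nop10*, *Ddx21*, *Utp20*, *Heatr1*, *Tsr1*, *Ltv1* and *Noc3l*. The cell division markers moved at the same time: 15 of 15 were called higher in both comparisons, and their summed level went from between 690 and 760 CPM in the 4 libraries at day 0 to between 6965 and 7718 CPM at day 5. The share of reads that aligned to more than 1 place was also higher at day 5, and the CD8 T cell, B cell and natural killer cell markers given above differed between the days. Their part in the changes of the ribosome biogenesis genes was not tested.

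Single libraries carried a large part of the count of calls, as each group holds only 2. Without WT day 0 library 1 or 2, 3 and 5 members were called higher in WT cells and 12 and 5 lower, while over all genes 2512 and 2487 were called higher and 2298 and 2143 lower, against 3112 and 2969 with all libraries. Leaving out WT day 5 library 1 or 2 gave 5 and 10 members higher and 12 and 5 lower, with 2709 and 2969 genes higher and 2301 and 2313 lower. In the KO-labelled libraries the counts were 4 higher and 11 lower without day 5 library 1, 7 higher and 6 lower without day 5 library 2, and 6 higher and 7 lower without day 0 library 1, while over all genes 2692, 2639 and 2887 were higher and 2028, 2030 and 2440 lower, against 3296 and 3029 with all libraries. Without WT day 5 library 2, the log2 fold changes in WT cells were -0.52 for *Polr1b*, -0.38 for *Tsr1* and -0.48 for *Noc3l*, and without WT day 5 library 1 they were 0.31 for *Nop58* and 0.21 for *Nhp2*. The value of *Ddx21* was -0.29 without WT day 0 library 2 and -0.32 in the KO-labelled libraries without KO day 5 library 2. Scaling to library totals alone moved the median of all genes by -0.14 in WT cells and -0.18 in the KO-labelled libraries. It gave 6 members higher and 15 lower, and 5 higher and 19 lower. Over all genes it gave 2668 higher and 3560 lower in WT cells, and 2755 and 3936 in the KO-labelled libraries. A GC and length offset moved the median of all genes by -0.13 and -0.19. With it 7 members were higher and 14 lower, and 6 higher and 19 lower. Over all genes the offset gave 2544 higher and 3558 lower, and 2723 and 3728. Over 17 alternatives of this kind, 7 members stayed called in WT cells and 9 in the KO-labelled libraries, and 5 in both: *Npm1*, *Noc4l* and *Rrp1b* higher, *Utp20* and *Heatr1* lower.

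**Figure D2:**
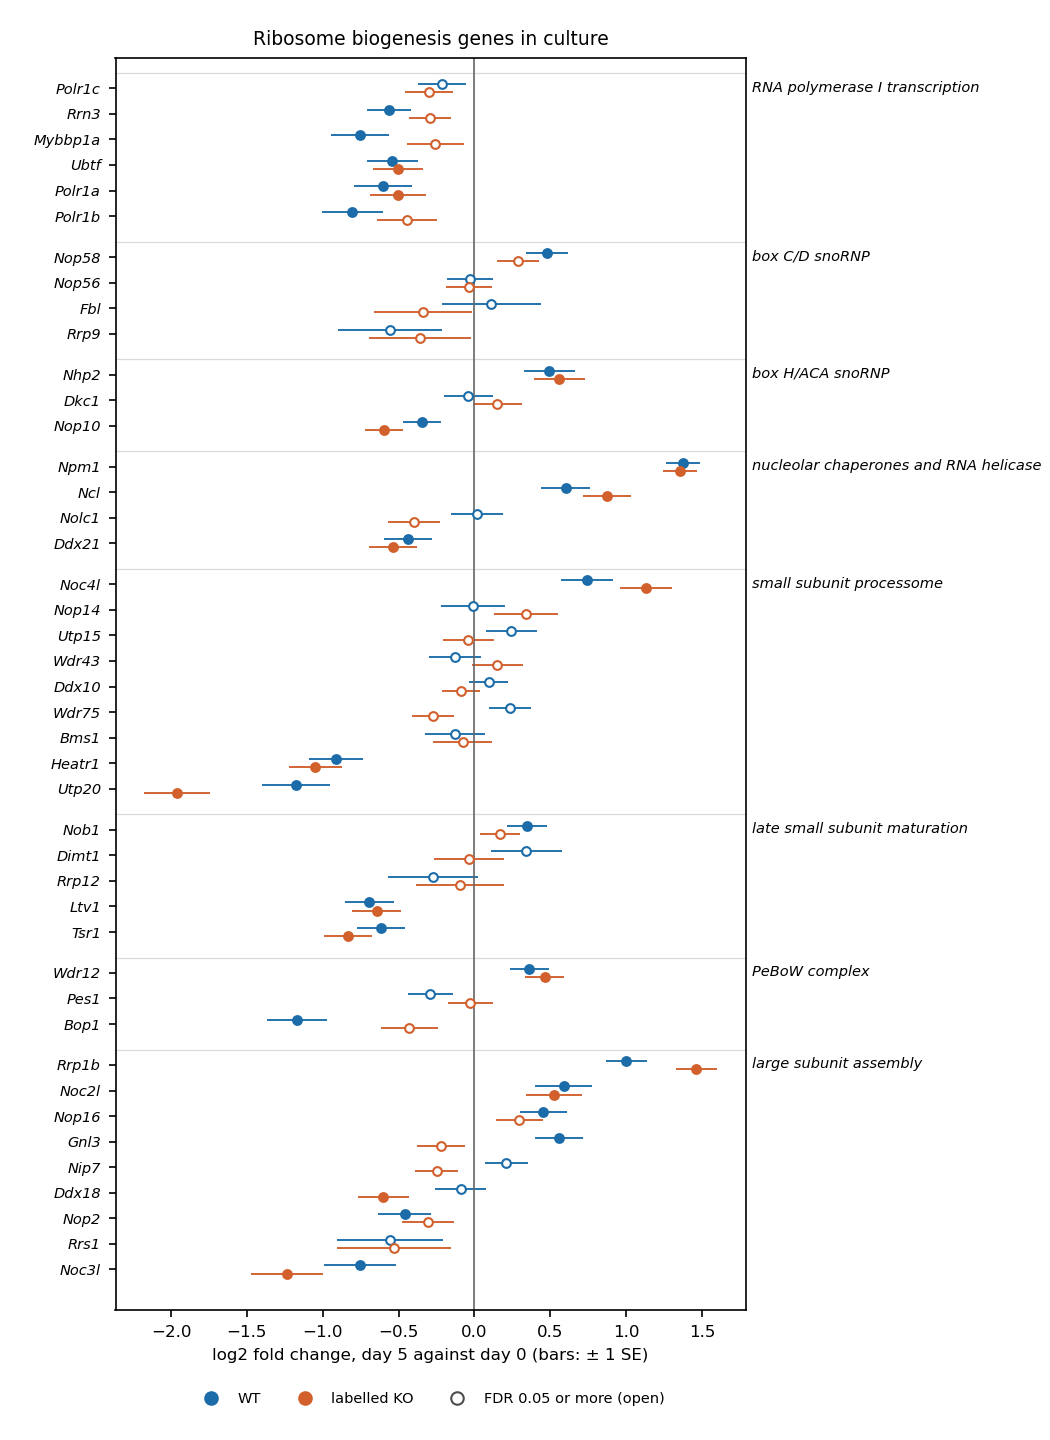
Log2 fold change at day 5 against day 0 of the 43 tested ribosome biogenesis genes, with bars of 1 SE from the edgeR fit, grouped by role, in WT cells (blue) and in the KO-labelled libraries (orange); filled points had an FDR under 0.05. All 6 RNA polymerase I genes lie left of 0 in both comparisons, and *Npm1* and *Rrp1b* lie farthest to the right.

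Of the 6 genes of RNA polymerase I transcription, 5 fell in WT cells and 2 in the KO-labelled libraries, against 23.6% and 24.0% of all genes called lower, and none rose. All 5 calls in WT cells were lost without WT day 0 library 2. The other 4 members did not pass in the KO-labelled libraries, although the log2 fold changes of all 6 were negative in both comparisons, with a median of -0.58 in WT cells and -0.37 in the KO-labelled libraries. *Polr1b*, the second largest subunit of the polymerase, was at 59.2 and 68.7 CPM in WT cells at day 0 and 43.4 and 29.2 CPM at day 5, and at 54.4 and 57.3 CPM and 44.5 and 37.3 CPM in the KO-labelled libraries. Both day 5 libraries were below both day 0 libraries in each comparison, and the 2 WT libraries at day 5 differed from each other. The log2 fold change was -0.81 ± 0.20 (SE) in WT cells (edgeR FDR 0.00527) and -0.45 ± 0.20 in the KO-labelled libraries (FDR 0.0760). The call in WT cells was lost without day 0 library 2 and without day 5 library 2, with an FDR of up to 0.0555. *Polr1c*, a subunit that RNA polymerases I and III share, was at 122 and 129 CPM in WT cells at day 0 and 123 and 93.5 CPM at day 5, so that the groups overlapped. Its log2 fold change was -0.21 ± 0.16 in WT cells and -0.30 ± 0.16 in the KO-labelled libraries (edgeR FDR 0.291 and 0.129). With 1 library left out these values ran from -0.40 to -0.00015 and from -0.44 to -0.15. The catalytic subunit gene *Polr1a* and *Ubtf*, the upstream binding factor of the ribosomal DNA, fell in both comparisons, with log2 fold changes of -0.61 and -0.54 in WT cells and -0.51 and -0.50 in the KO-labelled libraries. *Rrn3*, which recruits the polymerase to its promoter, and *Mybbp1a*, a nucleolar Myb-binding protein, fell in WT cells, with log2 fold changes of -0.56 and -0.75, and had values of -0.29 and -0.26 in the KO-labelled libraries, which did not pass the test. In the KO-labelled libraries the calls of *Polr1a* and *Ubtf* stood in 10 and 14 of 17 alternatives.

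MYC and related factors bind the E-box CACGTG, and promoters of the members were therefore searched for these letters, which read the same on both strands, in the 250 bases upstream of the start. RefSeq promoters (GRCm38.p6) were at hand for 39 of the 44 members. *Npm1*, *Rrs1*, *Fbl*, *Rrp12* and *Bop1* had none and were not searched, and neither were bases past the start of any member. *Rrn3* held 2 copies, 215 and 48 bases upstream, and *Nop2*, an rRNA methyltransferase of the large subunit, held 1 copy 60 bases upstream. That is 5.13% of the 39 members, against 10.1% of 8627 tested genes and 6.86% of 27025 genes with a promoter in the table. The related letters CACGCG or CGCGTG were in 6 members, 15.4%, against 16.6% of tested genes. The upstream windows of the 2 members are shown, with the E-box in capitals, because no other member searched held it. The *Rrn3* window is chr16:13780449-13780698 on the plus strand and that of *Nop2* chr6:125131633-125131882 on the plus strand.
Rrn3: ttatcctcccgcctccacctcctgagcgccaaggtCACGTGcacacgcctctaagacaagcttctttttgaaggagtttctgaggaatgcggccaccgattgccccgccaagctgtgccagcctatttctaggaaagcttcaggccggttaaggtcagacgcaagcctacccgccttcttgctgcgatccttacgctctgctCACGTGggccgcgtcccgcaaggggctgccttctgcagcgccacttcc
Nop2: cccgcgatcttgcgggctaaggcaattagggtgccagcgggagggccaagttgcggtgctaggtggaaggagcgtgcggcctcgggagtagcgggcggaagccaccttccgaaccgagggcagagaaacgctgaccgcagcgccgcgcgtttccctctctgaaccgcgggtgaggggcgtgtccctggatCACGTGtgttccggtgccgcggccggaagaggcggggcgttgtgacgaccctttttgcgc

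*Rrn3*, the promoter with 2 E-boxes, was at 107 and 123 CPM in WT cells at day 0 and 81.0 and 74.7 CPM at day 5, with both later libraries below both earlier ones. *Nop2* was at 104 and 133 CPM and 98.6 and 73.3 CPM in the same groups, also without overlap. Their log2 fold changes in WT cells were -0.56 ± 0.14 (edgeR FDR 0.00590) and -0.46 ± 0.17 (FDR 0.0433). Neither passed in the KO-labelled libraries, where the values were -0.29 ± 0.14 (FDR 0.101) and -0.31 ± 0.17 (FDR 0.153). The call of *Rrn3* in WT cells stood in 16 of 17 alternatives and that of *Nop2* in 9, with an FDR of up to 0.347 for *Nop2* without WT day 0 library 2. A match of letters is a description of the sequence and no measure of binding.

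Of the 4 box C/D members, only *Nop58* was called, higher in WT cells. Over all genes, 48.3% were called in WT cells and 50.2% in the KO-labelled libraries. *Nop58*, a core protein that pairs with *Nop56* in this particle, was at 402 and 424 CPM in WT cells at day 0 and 645 and 504 CPM at day 5, and at 328 and 366 CPM and 450.3 and 396 CPM in the KO-labelled libraries. Both day 5 libraries were above both day 0 libraries in each comparison. The log2 fold change was 0.48 ± 0.14 in WT cells (edgeR FDR 0.0127) and 0.29 ± 0.14 in the KO-labelled libraries (FDR 0.102), and the call was lost without either WT day 0 library or without WT day 5 library 1 (FDR up to 0.0892). *Nop56* was at 656 and 719 CPM in WT cells at day 0 and 736 and 612 CPM at day 5, with log2 fold changes of -0.03 ± 0.15 in WT cells and -0.04 ± 0.15 in the KO-labelled libraries. *Rrp9*, the protein that marks the U3 snoRNP, was low, at 15.2 and 23.5 CPM and 10.1 and 16.4 CPM in the same WT groups, and its libraries differed as much within a group as between groups. Its log2 fold change was -0.56 ± 0.34 in WT cells and -0.36 ± 0.34 in the KO-labelled libraries (edgeR FDR 0.20 and 0.394), the latter of opposite sign, 0.14, without KO day 0 library 1. *Fbl* had log2 fold changes of 0.11 ± 0.32 and -0.34 ± 0.33, neither past the test.

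In the box H/ACA particle the tested members split. *Nhp2* was at 182 and 188 CPM in WT cells at day 0 and 308 and 211 CPM at day 5, and at 146 and 147 CPM and 236 and 195 CPM in the KO-labelled libraries. It rose in both comparisons, by 0.49 ± 0.17 on the log2 scale in WT cells (edgeR FDR 0.0281) and 0.56 ± 0.17 in the KO-labelled libraries (FDR 0.0143), but the call stood in 12 and 14 of 17 alternatives. It was lost with the GC and length offset in both, where the value in the KO-labelled libraries was -0.023, with library totals in WT cells, and without WT day 0 library 1 or 2 or WT day 5 library 1 in WT cells, and KO day 0 or day 5 library 1 in the KO-labelled libraries. *Nop10* was at 234 and 227 CPM and 187 and 177 CPM in WT cells, and at 206 and 194 CPM and 143 and 122 CPM in the KO-labelled libraries. It fell in both, with log2 fold changes of -0.34 ± 0.12 (edgeR FDR 0.0380) and -0.60 ± 0.13 (FDR 0.00166). In every one of the 17 alternatives the fall was called in the KO-labelled libraries, and in 5 of 17 in WT cells, where the FDR reached 0.168 without WT day 0 library 1. *Dkc1* lay between them, with 644 and 719 CPM and 770.0 and 554 CPM in WT cells, where the groups overlapped, and log2 fold changes of -0.04 ± 0.16 in WT cells and 0.15 ± 0.16 in the KO-labelled libraries.

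Nucleophosmin and nucleolin, the abundant chaperones of the nucleolus, both rose. *Npm1* (GRCm38 chr11:33152287-33163206, minus strand) was at 687 and 597 CPM in WT cells at day 0 and 1634 and 1704 CPM at day 5, and at 571 and 539.5 CPM and 1397 and 1445 CPM in the KO-labelled libraries. The lowest day 5 library was thus above every day 0 library by a wide margin. The rise was 2.60-fold in WT cells (log2 fold change 1.38 ± 0.11, edgeR FDR 7.16e-07) and 2.56-fold in the KO-labelled libraries (1.36 ± 0.11, FDR 7.26e-07), and it was called in all 17 alternatives in both. With the GC and length offset it came to 0.78 and 0.92 on the log2 scale. *Ncl*, which encodes nucleolin, was at 867 and 908 CPM and 1431 and 1261 CPM in WT cells, and at 767 and 511 CPM and 1156 and 1187 CPM in the KO-labelled libraries, where the 2 libraries at day 0 lay apart. Its log2 fold change was 0.60 ± 0.16 in WT cells (edgeR FDR 0.00786) and 0.87 ± 0.16 in the KO-labelled libraries (FDR 0.000638), and the call in WT cells was lost without day 0 library 1 (FDR 0.0640). *Ddx21*, an RNA helicase of the nucleolus, fell from 212 and 257 CPM to 171 and 175 CPM in WT cells, with log2 fold changes of -0.44 ± 0.16 (edgeR FDR 0.0398) and -0.54 ± 0.16 in the KO-labelled libraries (FDR 0.0143). Its call stood in 11 and 15 of 17 alternatives, and the FDR reached 0.297 without WT day 0 library 2 and 0.206 without KO day 5 library 2. *Nolc1*, a snoRNP chaperone, was not called, with log2 fold changes of 0.02 ± 0.17 and -0.40 ± 0.17.

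**Figure D3:**
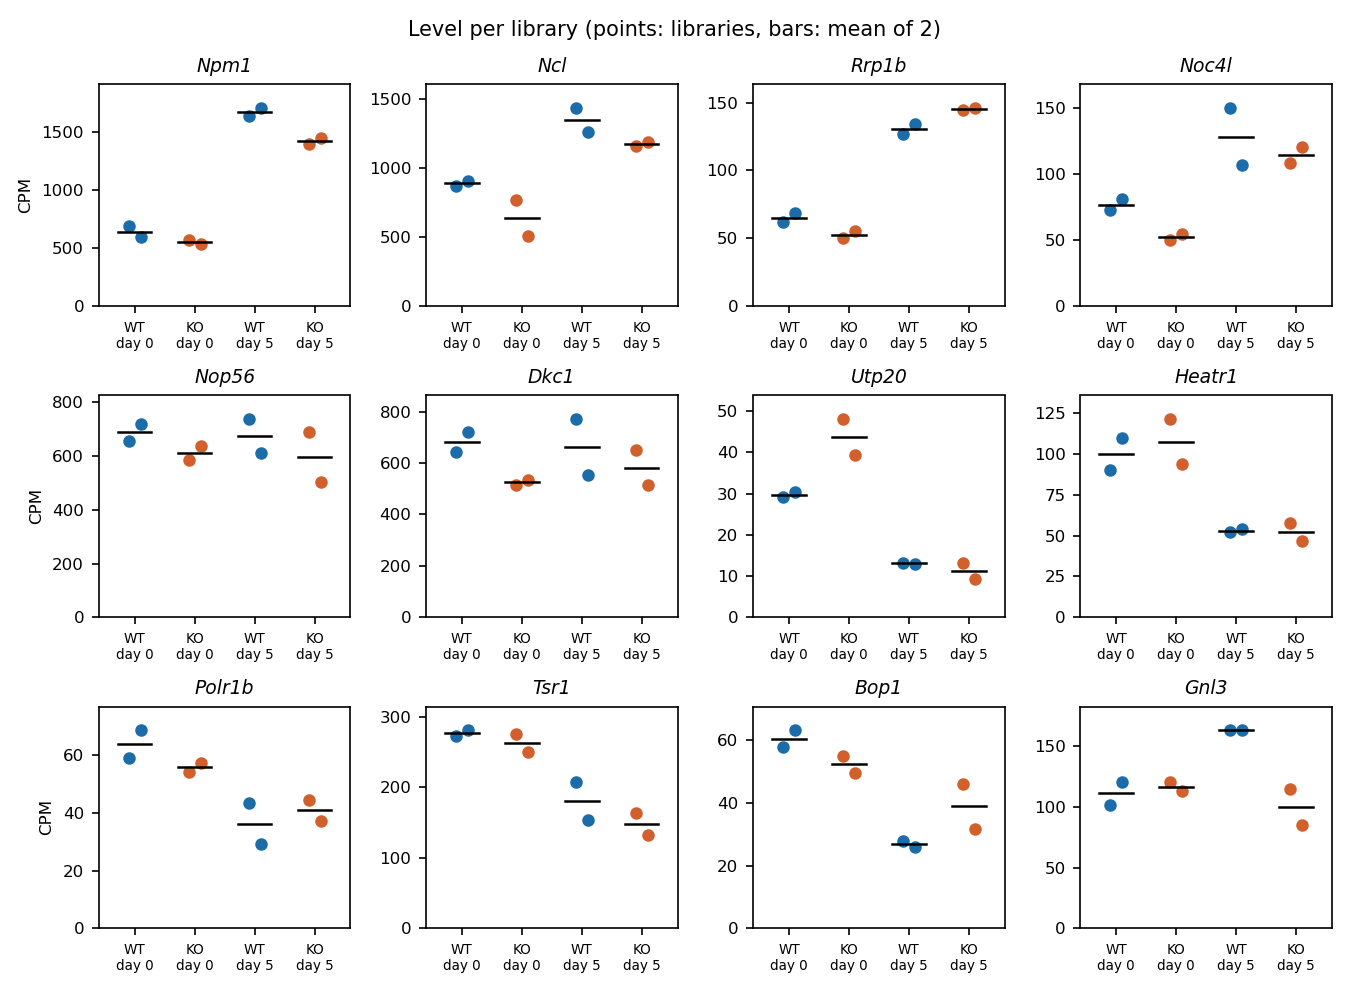
CPM of 12 ribosome biogenesis genes in each of the 8 libraries (points) with the mean of each group of 2 (bars), on linear axes that start at 0, WT in blue and the KO-labelled libraries in orange. *Npm1*, *Ncl*, *Rrp1b* and *Noc4l* are higher at day 5, *Utp20*, *Heatr1*, *Polr1b* and *Tsr1* lie lower, and *Nop56* and *Dkc1* overlap between the days in WT cells.

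Of 9 members of the small subunit processome, *Noc4l* rose and *Utp20* and *Heatr1* fell in both comparisons, and the other 6 were not called in either. The shares of all genes called were 48.3% in WT cells and 50.2% in the KO-labelled libraries. *Utp20* (chr10:88746607-88826804, minus strand), a very large scaffold of the processome, was at 29.2 and 30.3 CPM in WT cells at day 0 and 13.2 and 13.0 CPM at day 5, and at 48.0 and 39.5 CPM and 13.2 and 9.28 CPM in the KO-labelled libraries. Every day 5 library was far below the lowest day 0 library. The fall was 2.26-fold in WT cells (log2 fold change -1.18 ± 0.22, edgeR FDR 0.000834) and 3.89-fold in the KO-labelled libraries (-1.96 ± 0.22, FDR 1.07e-05). *Heatr1* (chr13:12395027-12440289, plus strand), the mammalian counterpart of yeast Utp10 and another large repeat protein, went from 90.3 and 109 CPM to 51.9 and 54.0 CPM in WT cells, and from 121 and 93.6 CPM to 57.4 and 46.6 CPM in the KO-labelled libraries, with log2 fold changes of -0.92 ± 0.18 (edgeR FDR 0.00102) and -1.05 ± 0.18 (FDR 0.000307). *Noc4l* (chr5:110648418-110653417, minus strand), which acts with *Nop14* on the early small subunit, was at 73.0 and 80.9 CPM in WT cells at day 0 and 149.7 and 107 CPM at day 5, and at 50.2 and 54.5 CPM and 108 and 120.2 CPM in the KO-labelled libraries. All day 5 libraries were above all day 0 libraries. Its log2 fold change was 0.74 ± 0.17 in WT cells (edgeR FDR 0.00314) and 1.13 ± 0.17 in the KO-labelled libraries (FDR 0.000141). The 6 others, the WD-repeat proteins *Utp15*, *Wdr43* and *Wdr75*, the assembly factor *Nop14*, the GTPase *Bms1* and the helicase *Ddx10*, had log2 fold changes between -0.13 and 0.24 in WT cells and between -0.27 and 0.34 in the KO-labelled libraries.

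Late maturation of the small subunit, which takes place partly in the cytoplasm, had 3 of 5 members called in WT cells and 2 in the KO-labelled libraries, beside the 48.3% and 50.2% of all genes. *Tsr1*, a GTPase-like factor of the pre-40S particle, was at 274 and 281 CPM in WT cells at day 0 and 208 and 154 CPM at day 5, and at 277 and 251 CPM and 164 and 133 CPM in the KO-labelled libraries. It fell in both, with log2 fold changes of -0.62 ± 0.16 (edgeR FDR 0.00641) and -0.83 ± 0.16 (FDR 0.000806), the former lost without WT day 5 library 2 (FDR 0.0692). The export adaptor gene *Ltv1* fell in both, with log2 fold changes of -0.69 and -0.65, the latter not called without KO day 5 library 2 (FDR 0.105). *Nob1*, the endonuclease that makes the final cut of 18S rRNA, was at 109.8 and 118 CPM in WT cells at day 0 and 142 and 147 CPM at day 5, a small difference without overlap. Its log2 fold change was 0.35 ± 0.13 in WT cells (edgeR FDR 0.0469) and 0.17 ± 0.13 in the KO-labelled libraries (FDR 0.30). The call in WT cells stood in only 6 of 17 alternatives, and the value in the KO-labelled libraries changed sign to -0.012 with library totals and -0.24 with the GC and length offset. The methyltransferase *Dimt1* and the export factor *Rrp12* were not called, at 0.34 ± 0.23 and -0.27 ± 0.30 in WT cells.

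The 3 subunits of the PeBoW complex, which is needed to process the 32S precursor of the large subunit rRNA, did not move together. *Bop1* (chr15:76452989-76477277, minus strand) was at 57.8 and 63.1 CPM in WT cells at day 0 and 27.9 and 25.8 CPM at day 5, and at 54.8 and 49.5 CPM and 46.0 and 31.6 CPM in the KO-labelled libraries, which differed from each other at day 5. The fall in WT cells was 2.25-fold (log2 fold change -1.17 ± 0.20, edgeR FDR 0.000383) and was called in all 17 alternatives, whereas the value in the KO-labelled libraries, -0.43 ± 0.19, did not pass (FDR 0.0775) and went from -0.71 without KO day 5 library 1 to -0.18 without KO day 5 library 2. *Wdr12* was at 168 and 154 CPM and 214 and 199.5 CPM in WT cells, and at 112 and 131 CPM and 171 and 163 CPM in the KO-labelled libraries, again without overlap. It rose by 0.36 ± 0.13 (edgeR FDR 0.0353) and 0.46 ± 0.13 (FDR 0.00977) on the log2 scale, with the call standing in 10 and 14 of 17 alternatives. *Pes1* had values of -0.29 ± 0.15 and -0.03 ± 0.15 and was not called.

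Among the other 9 factors of large subunit assembly, 4 rose and 2 fell in WT cells, and 2 rose and 2 fell in the KO-labelled libraries, beside the same 48.3% and 50.2% of all genes. *Rrp1b* (chr17:32036100-32062865, plus strand), a nucleolar protein that also binds chromatin, was at 61.7 and 68.7 CPM in WT cells at day 0 and 127 and 134 CPM at day 5, and at 50.3 and 55.2 CPM and 144 and 146 CPM in the KO-labelled libraries. The rise was 2.0-fold in WT cells (log2 fold change 1.0 ± 0.14, edgeR FDR 6.12e-05) and 2.76-fold in the KO-labelled libraries (1.46 ± 0.14, FDR 2.03e-06). *Noc3l*, which escorts the pre-60S particle with *Noc2l*, was at 37.0 and 49.7 CPM and 30.3 and 20.5 CPM in WT cells, and at 57.6 and 43.5 CPM and 23.5 and 19.5 CPM in the KO-labelled libraries. It fell in both, with log2 fold changes of -0.75 ± 0.24 (edgeR FDR 0.0202) and -1.24 ± 0.24 (FDR 0.000852), while its partner *Noc2l* rose by 0.59 and 0.52. The call of *Noc3l* in WT cells was lost without WT day 0 library 2 (FDR 0.181) and without WT day 5 library 2. *Nop16*, an assembly factor known as a MYC target, and *Gnl3*, the nucleolar GTPase nucleostemin, rose in WT cells by 0.45 and 0.55, with values of 0.30 and -0.22 in the KO-labelled libraries that did not pass. In WT cells the calls of *Noc2l*, *Nop16* and *Gnl3* stood in 12, 12 and 15 of 17 alternatives, and that of *Noc2l* in the KO-labelled libraries in 12. The helicase gene *Ddx18* fell in the KO-labelled libraries (-0.60, not called without KO day 5 library 1), and was at -0.09 in WT cells. *Nip7* and *Rrs1* were not called, *Rrs1* at only 2.58 to 8.76 CPM in the 8 libraries.

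Across the 43 tested members, the Spearman correlation of the culture change was 0.37 in WT cells and 0.40 in the KO-labelled libraries with the mean CPM over the 8 libraries, of -0.07 and -0.03 with exon length and of -0.21 and -0.08 with GC content. These describe genes that share the same libraries. Of all CPM, the 44 members together took 7262 and 7718 in WT cells at day 0 and 9420 and 8343 at day 5. Without *Npm1* and *Ncl* the sums were 5708 and 6212 at day 0 and 6355 and 5379 at day 5, so that the groups overlapped. In the KO-labelled libraries the sums without these 2 genes were 5389 and 5158 at day 0 and 5420 and 4678 at day 5, which overlapped as well.

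A wider list of 108 other ribosome biogenesis genes, of which 107 were found and tested, also held rises and falls. In WT cells 50 of them were called, 23 higher and 27 lower, and in the KO-labelled libraries 36, 15 higher and 21 lower, beside the 48.3% and 50.2% of all genes above. The median log2 fold change of the 107 was -0.08 in WT cells and -0.09 in the KO-labelled libraries. Among 11 further genes of RNA polymerase I, 2 rose and 4 fell in WT cells, beside 24.7% and 23.6% of all genes. *Taf1c*, a subunit of the promoter selectivity factor SL1, went from 15.4 and 19.0 CPM to 3.88 and 1.93 CPM (log2 fold change -2.50 ± 0.39, edgeR FDR 0.000212), and in the KO-labelled libraries from 22.1 and 12.8 CPM to 6.07 and 8.52 CPM (-1.28 ± 0.34, FDR 0.00708). *Taf1d*, another SL1 subunit, rose by 1.14 ± 0.18 and 1.35 ± 0.18 on the log2 scale, and *Polr1d*, a subunit shared with RNA polymerase III, by 0.68 ± 0.15 and 0.56 ± 0.15. The termination factor gene *Ttf1* fell, with values of -0.55 and -0.61.

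Of 42 other small subunit genes, 8 rose and 8 fell in WT cells, beside 24.7% and 23.6% of all genes. In the KO-labelled libraries 5 rose and 10 fell, beside 26.2% and 24.0% of all genes. *Pwp2*, a processome scaffold, was at 55.3 and 47.9 CPM in WT cells at day 0 and 16.9 and 8.19 CPM at day 5, with log2 fold changes of -2.0 ± 0.26 and -1.63 ± 0.25 (edgeR FDR 4.6e-05 and 0.000148). *Nol6*, a further processome protein, fell, with values of -1.65 and -1.95. In the other direction, the kinase *Riok1*, of late small subunit maturation, rose by 1.23 and 0.71, and the processome gene *Utp11l* by 1.0 and 0.86. Of 42 other large subunit genes, 7 rose and 12 fell in WT cells and 3 rose and 7 fell in the KO-labelled libraries, beside the same shares of all genes. *Mdn1*, the giant AAA ATPase midasin that strips factors from the pre-60S particle, was at 98.2 and 106 CPM in WT cells at day 0 and 25.4 and 25.5 CPM at day 5, and at 83.7 and 87.9 CPM and 24.1 and 18.4 CPM in the KO-labelled libraries. Its log2 fold changes were -2.0 ± 0.17 and -2.01 ± 0.17 (edgeR FDR 1.09e-06 and 9.17e-07). *Nol8*, a nucleolar protein, fell, with values of -1.37 and -1.34, whereas *Nsa2* and *Rpf2*, assembly factors of the pre-60S particle, rose by 0.76 and 0.74 in WT cells and by 0.62 and 0.46 in the KO-labelled libraries.

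The second comparison set the KO-labelled libraries against WT at each day. At day 0 none of the 43 members was called by edgeR, against 1.80% of all genes (0.913% higher and 0.889% lower), while 9 had an unadjusted p under 0.05, as did 1742 of the 12597 genes. DESeq2 called 1 member, of 299 genes called, and edgeR called 3 without KO day 0 library 1, of 200 genes. The log2 fold change was negative for 33 of 43 members (76.7%), beside 50.2% of all genes, with a median of -0.13 beside -0.0017 over all genes. Both KO-labelled libraries were below both WT libraries for 20 members (46.5%), against 21.7% of all genes, and above for 2 (4.65%), against 21.7%. Per library, the median log2 ratio of the members to the WT mean of day 0 was -0.12 and -0.16 in the 2 KO-labelled libraries and -0.06 and 0.06 in the 2 WT libraries. The members share libraries and are not independent, and the median gets no test. It was negative in all 17 alternatives, between -0.19 and -0.08 with 1 library left out. All signs at day 0 rest on the labels and would turn if the labels of that day were exchanged. The *Satb1* level of that day goes against the labels, although its difference was not called and counts per gene do not show the deleted exons. Both KO-labelled libraries of day 0 also had a higher sum of the CD4 T cell list, most of it *Cd40lg*, and more *Cd79b*. The part of these genes was not tested.

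*Wdr43*, a WD-repeat protein of the small subunit processome, was the member nearest to a call at day 0. It was at 271 and 296 CPM in WT and 209.8 and 143 CPM in the KO-labelled libraries, which differed from each other by more than the WT libraries did. The log2 fold change was -0.68 ± 0.17 (edgeR FDR 0.0713). It was called with DESeq2 (FDR 0.0123), without the filter on low counts (FDR 0.00716) and without KO day 0 library 1 (FDR 0.01315), where the log2 fold change was -0.99. Without KO day 0 library 2 it was -0.40 (FDR 0.315), and the FDR reached 0.362 without WT day 0 library 2. *Rrs1*, a regulator of ribosome synthesis that brings the 5S particle to the large subunit, was lower still in value but at 8.76 and 8.37 CPM in WT and 5.23 and 4.40 CPM in the KO-labelled libraries (-0.81 ± 0.34, FDR 0.308). The 2 largest positive values were those of *Utp20*, at 29.2 and 30.3 CPM in WT and 48.0 and 39.5 CPM in the KO-labelled libraries (0.56 ± 0.20, edgeR FDR 0.226), and of *Noc3l* (0.23 ± 0.23, FDR 0.741), whose groups overlapped. The value of *Noc3l* was 0.0034 without KO day 0 library 1 and 0.45 without WT day 0 library 2. The other members with an unadjusted p under 0.05 were *Noc4l* (-0.56), *Nop14* (-0.52), *Ncl* (-0.47), *Wdr12* (-0.41), *Dkc1* (-0.38) and *Rrp1b* (-0.31), all lower in both KO-labelled libraries. Of the 107 other ribosome biogenesis genes, 3 were called at day 0, all lower: *Ppan* (-1.13 ± 0.22, edgeR FDR 0.0210) and *Gltscr2* (-1.63 ± 0.34, FDR 0.0308), of the large subunit, and *Exosc4* (-0.79 ± 0.16, FDR 0.0264), of the RNA exosome. These 3 were named after their values were seen, and none was called when either WT day 0 library was left out.

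At day 5, where *Satb1* was lower in the KO-labelled libraries, the log2 fold change was negative for 35 of 43 (81.4%), beside 50.0% of all genes, and its median was -0.22, beside 0 over all genes. By edgeR 1 member was called, against 1.63% of all genes (1.31% higher and 0.318% lower), while 10 had an unadjusted p under 0.05, as did 1775 of the 12597 genes. Both KO-labelled libraries were below both WT libraries for 17 members (39.5%), against 20.7% of all genes, and above for 5 (11.6%), against 25.0%. The medians per library against the WT mean of day 5 were -0.14 and -0.34 in the KO-labelled libraries and 0.09 and -0.09 in WT. The difference between the 2 libraries of each group was thus as large as much of the difference between groups, and the median was -0.062 without WT day 5 library 1, -0.14 without KO day 5 library 2 and -0.34 without KO day 5 library 1. The sign was not shared by all roles: 4 of 6 RNA polymerase I members and 2 of 3 PeBoW members had positive values at day 5, whereas all 9 of the processome and all 5 of late small subunit maturation had negative ones. None of these single values passed the test.

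The member called at day 5 was *Gnl3* (chr14:31012433-31019152, minus strand), nucleostemin, a GTPase of the nucleolus known from stem cells and dividing cells. It was at 102 and 121 CPM in WT and 121 and 113 CPM in the KO-labelled libraries at day 0, and at 163 and 163 CPM in WT and 115 and 85.2 CPM in the KO-labelled libraries at day 5. The groups overlapped at day 0 and not at day 5. The level at day 5 was 1.63-fold lower in the KO-labelled libraries (log2 fold change -0.70 ± 0.16, edgeR FDR 0.0474). The call stood in 8 of 17 alternatives, with an FDR from 0.00518 with DESeq2 to 0.518 without KO day 5 library 2, where the log2 fold change was -0.50. It was not called without any other library of day 5 or without either WT library of day 0. The call was also lost with the replicate block (edgeR FDR 0.0527), with only the 4 libraries compared (FDR 0.0740) and with the GC and length offset (FDR 0.0937). Of its exon bases 3.85% overlap other annotated genes on the same strand, among them snoRNA genes. Next to it, *Wdr75*, a processome protein, was at 137 and 147 CPM in WT and 105 and 86.3 CPM in the KO-labelled libraries at day 5 (-0.57 ± 0.14, edgeR FDR 0.0671). Lower values with an unadjusted p under 0.05 were also those of *Nop10* (-0.46), *Nop58* (-0.44), *Wdr43* (-0.40), *Nip7* (-0.38), *Ddx18* (-0.37), *Ddx10* (-0.32) and *Wdr12* (-0.31), each without overlap between the groups.

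The lowest value at day 5 was that of *Rrs1* (-0.79 ± 0.38, edgeR FDR 0.386), with 6.70 and 4.82 CPM in WT and 2.58 and 4.17 CPM in the KO-labelled libraries, near the limit of the depth. The 2 largest positive values were those of *Bop1*, at 27.9 and 25.8 CPM in WT and 46.0 and 31.6 CPM in the KO-labelled libraries (0.53 ± 0.20, FDR 0.239), and of *Mybbp1a*, at 116 and 89.6 CPM and 134 and 133 CPM (0.38 ± 0.19, FDR 0.412). Both were higher in each KO-labelled library than in each WT library. With 1 library left out the value of *Bop1* ran from 0.24 to 0.77 and that of *Mybbp1a* from 0.21 to 0.58. Of the 107 other genes 2 were called, both lower and named after their values were seen: *Bccip* (-0.69 ± 0.13, edgeR FDR 0.0184), a factor of large subunit assembly and of DNA repair, and *Mphosph10* (-0.68 ± 0.15, FDR 0.0389), a U3 snoRNP protein. Neither was called when a KO day 5 library was left out. The summed level of the cell division markers was 6965 to 7324 CPM in WT and 7222 to 7718 CPM in the KO-labelled libraries at day 5, and its part in the values above was not tested.

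**Figure D4:**
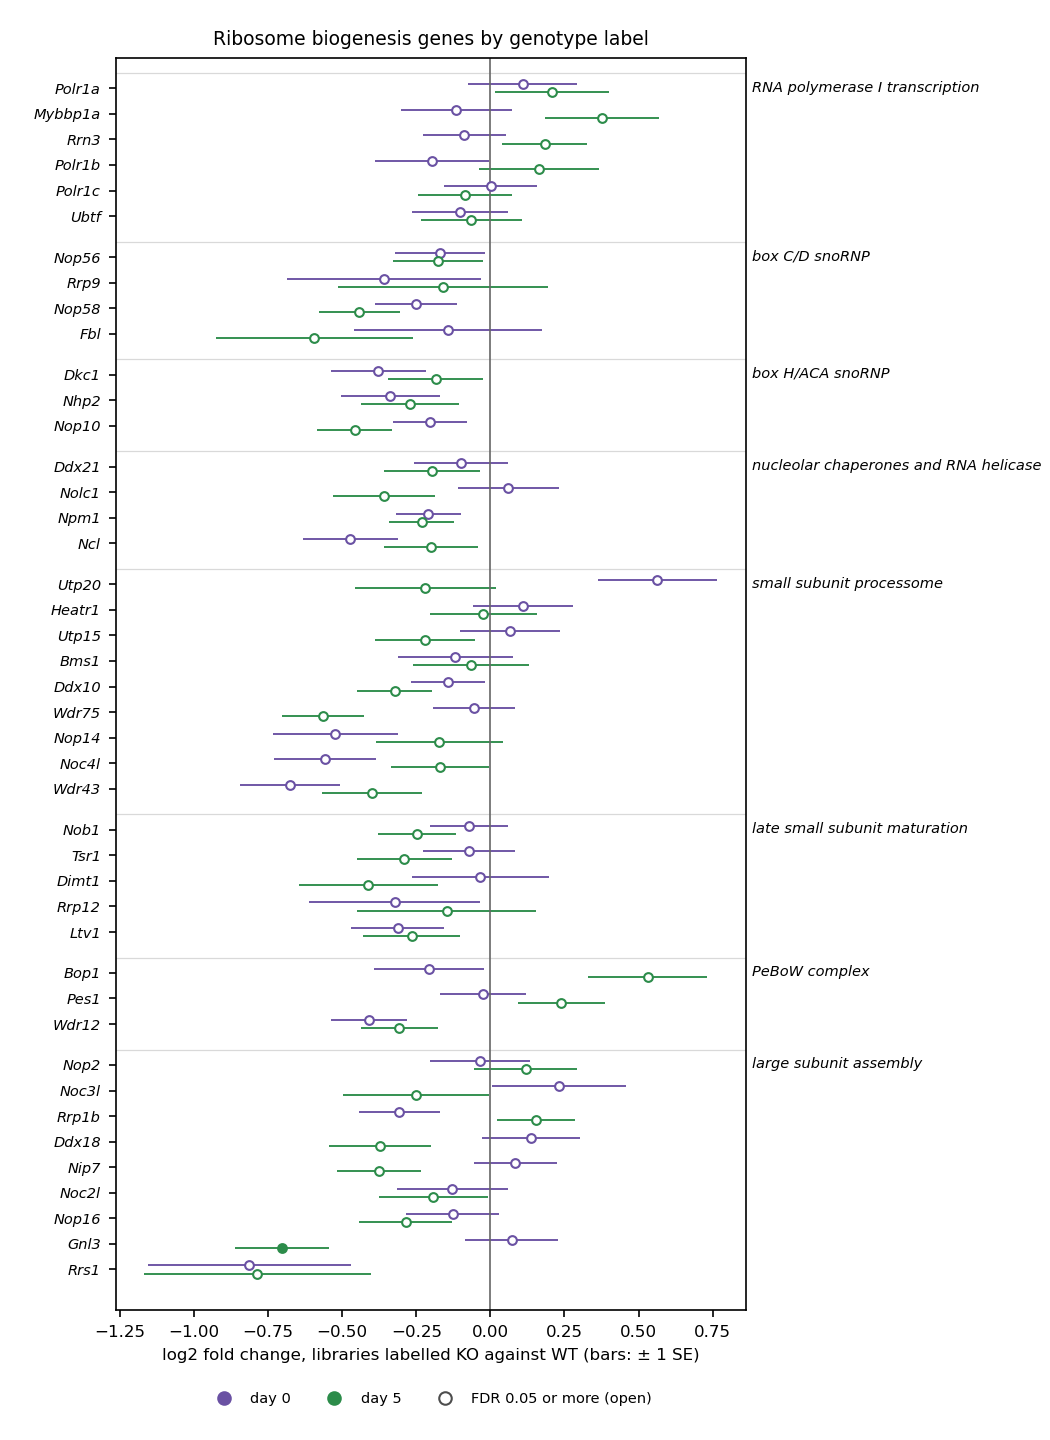
Log2 fold change of the 43 tested ribosome biogenesis genes in the KO-labelled libraries against WT, with bars of 1 SE from the edgeR fit, grouped by role, at day 0 (purple) and day 5 (green); filled points had an FDR under 0.05. *Gnl3* at day 5 is the 1 filled point, and most open points lie left of 0.

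**Figure D5:**
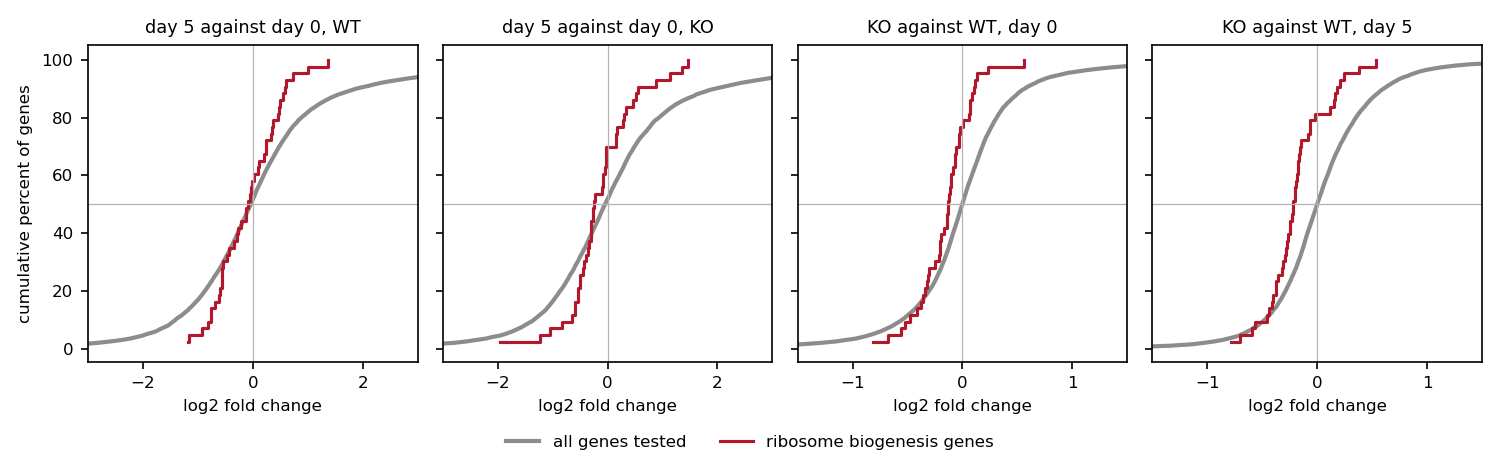
Cumulative percent of genes against log2 fold change for the 43 tested ribosome biogenesis genes (red) and all 12597 genes tested (grey), in the 4 comparisons; the x axis spans -3 to 3 for culture and -1.5 to 1.5 for genotype. In culture the red curve is steeper than the grey one, and in the genotype comparisons it lies to the left of it around the median, at -0.13 at day 0 and -0.22 at day 5.

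The interaction asked whether the KO against WT difference changed from day 0 to day 5. None of the 43 members was called by edgeR, against 0.159% of all genes, while 6 had an unadjusted p under 0.05, as did 1562 of the 12597 genes, and DESeq2 called no member, of 144 genes called. The median was -0.01. The largest positive values were those of *Bop1* (0.74 ± 0.27, edgeR FDR 0.314) and *Mybbp1a* (0.49 ± 0.27, FDR 0.486), which ran from 0.44 to 0.98 and from 0.14 to 0.78 with 1 library left out, lowest without KO day 5 library 1 and WT day 0 library 2. The largest negative values were those of *Utp20* (-0.78 ± 0.31, FDR 0.337) and *Gnl3* (-0.78 ± 0.22, FDR 0.203). A difference between the culture changes of WT and KO-labelled cells was therefore not shown for *Bop1*, *Gnl3* or any other member, although their calls differed between the comparisons.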

How the data were processed

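Total RNA of 8 libraries was sequenced in 50-base reads. Per the labels, the authors used the NEBNext Ultra RNA kit, which does not mark strand unless its directional form is used, and their processing notes name HISAT2 2.1.0, HTSeq 0.11.1 and mm10. The annotation and strand setting are not given in the sources used here. The deposited files hold raw counts per gene symbol, 1 file per library; the summary lines of the files, such as reads with no feature (30.4% to 33.7% at day 0 and 27.5% to 29.1% at day 5) and reads that aligned to more than 1 place (31.8% to 34.5% and 35.7% to 37.4%), were kept out of library sizes, and 21.2% to 24.5% of the records were assigned to genes.

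Counts of 48321 symbols were joined, scaled by TMM and tested with edgeR 4.0.16 quasi-likelihood (glmQLFit, legacy form; R 4.3.3) after filterByExpr with a minimum count of 10, in 1 fit of 4 group means over all 8 libraries. Benjamini-Hochberg FDRs were computed over 12597 genes, and genes were called at an FDR under 0.05. CPM used TMM-scaled totals. Exon lengths and positions came from GENCODE M21. The 17 alternatives were DESeq2 1.42.0, DESeq2 size factors, library totals, no filter, 5 CPM in 2 libraries, only the 4 libraries compared, a replicate block, the edgeR 4 form, a GC and length offset (99.06% of genes had both), and each library left out in turn. The interaction has 16 of these, as it uses all 8 libraries.

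The members and lists were chosen with earlier results of these data known. Genes were named mostly by a fixed rule. It took, in each role, the member with the highest and the member with the lowest mean culture change. In each genotype comparison and in the interaction it took the called members and the 2 highest and 2 lowest values. Of each list of other genes it took the 2 highest and 2 lowest, mostly given by their log2 fold changes alone. Outside this rule, *Ncl*, *Heatr1*, *Rrn3*, *Nop2* and *Wdr75* were among the members also given with SE and FDR. The members listed for an unadjusted p under 0.05 were picked for their values. Libraries of a group differed by more than sampling noise (chi-square per degree of freedom 5.08 to 10.3). Counting error is small beside this spread except for genes with few counts. 1 of the B cell markers is not reported here.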

Additional observations from a re-analysis of the deposited data

How the results depend on the processing

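Each result was recomputed under 17 alternatives, or 16 for the interaction. In WT cells, 7 members were called higher at day 5 with the GC and length offset and 6 with library totals only, and the median log2 fold change of the members was -0.23 with either. In the KO-labelled libraries, 19 members were called lower with either, and the median was -0.37 with the offset and -0.43 with library totals. Calls over all genes were also more often lower than higher. With the offset 41.7% of them were higher in WT cells and 42.2% in the KO-labelled libraries, and with library totals 42.8% and 41.2%. Among the members given with full statistics in a comparison, the direction turned for *Rrp9* (-0.68 to 0.14 with 1 library left out, 0.14 without KO day 0 library 1), *Nhp2* (-0.023 with the offset) and *Nob1* (-0.24 with the offset and -0.012 with library totals), all in the KO-labelled libraries in culture. Over all 43 members, up to 5 turned under 1 alternative in WT culture, up to 6 in the KO-labelled libraries, up to 9 at day 0, up to 7 at day 5 and up to 12 in the interaction, and of these only *Nhp2* was a called member. At day 0, 1 member was called with DESeq2, with the offset and without the filter, and 5 other ribosome biogenesis genes were called without the filter. At day 5, 2 members were called with DESeq2, and 0 with the offset, with only the 4 libraries compared and with the replicate block, while 0 other genes were called with the offset and with only the 4 libraries. With 1 library left out, culture calls in WT cells ranged from 10 to 24 members (3 to 11 higher, 5 to 13 lower) and from 34 to 49 other genes, with a median of -0.15 to -0.0001. In the KO-labelled libraries they ranged from 13 to 20 members (4 to 9 higher, 6 to 11 lower) and from 21 to 42 other genes, with a median of -0.27 to -0.13. The same ranges were 0 to 3 members, 0 to 4 other genes and a median of -0.19 to -0.08 for KO against WT at day 0, 0 to 1 member, 0 to 3 other genes and -0.34 to -0.062 at day 5, and 0 members and -0.13 to 0.10 for the interaction. The causes were not tested.

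Replicate numbers were shared between groups, but same-numbered libraries deviated together only weakly and not in every pair (Pearson correlation of deviations -0.074 to 0.228), so the numbers were not taken as pairs. A fit with the replicate block called 10 members higher and 14 lower in WT culture, 7 and 11 in the KO-labelled libraries, and 0 in either genotype comparison and the interaction. With 2 libraries a group, at depths of 4170126 to 11117971 counts, a p that misses the threshold does not show that a member kept its level, and members such as *Rrs1* and *Gar1* were too low for a firm value.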

Other observations

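The RNA exosome, the nuclease complex that trims and degrades rRNA precursors among other RNAs, was measured through 12 genes, all tested. In WT cells 6 of them rose and 3 fell at day 5, and in the KO-labelled libraries 5 rose and 1 fell, beside the 48.3% and 50.2% of all genes called. The median log2 fold change was 0.27 in WT cells and 0.30 in the KO-labelled libraries. *Mphosph6*, a cofactor that binds the nuclear exosome, was at 46.9 and 31.9 CPM in WT cells at day 0 and 149.6 and 134 CPM at day 5, and at 35.9 and 42.4 CPM and 104 and 118 CPM in the KO-labelled libraries. All day 5 libraries were above all day 0 libraries, and the log2 fold changes were 1.84 ± 0.19 and 1.51 ± 0.18 (edgeR FDR 5.57e-06 and 2.36e-05). *Exosc8*, a subunit of the ring-shaped core, was at 375 and 366 CPM and 1224 and 937 CPM in WT cells, with log2 fold changes of 1.54 ± 0.13 and 1.60 ± 0.13 (edgeR FDR 1.24e-06 and 7.99e-07).

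Other subunits of the same complex went the other way. *Exosc5*, another ring subunit, was at 134 and 138 CPM in WT cells at day 0 and 101 and 87.2 CPM at day 5, and fell there (log2 fold change -0.53 ± 0.14, edgeR FDR 0.00625), with a value of -0.17 ± 0.13 in the KO-labelled libraries that did not pass the test. *Exosc10*, the nuclear exonuclease of the complex, fell in WT cells as well (-0.53 ± 0.14, edgeR FDR 0.00878) and had a value of -0.24 ± 0.14 in the KO-labelled libraries. At day 0, 11 of the 12 exosome genes had lower values in the KO-labelled libraries, beside 50.2% of all genes. *Exosc4* was called, against 1.80% of all genes. The *Satb1* level of that day goes against the KO label, although its difference was not called.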
